A study of Homo sapiens with 24 samples.

Results

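The 9 genes described here are those commonly read as signs of pancreatic duct or of mesenchymal identity: the keratins KRT7, KRT8, KRT18 and KRT19, the transcription factor SOX9, the cadherins CDH1 and CDH2, the filament gene VIM and the repressor ZEB1. They were chosen by name, with earlier results of these data known, out of the 54583 genes in the count table. All 9 have a row there. Of these, 8 had at least 1 read in each of the 24 libraries and entered the tests, and CDH1 did not. The 8 tested genes are part of 12058 genes that passed the same filter.

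The libraries came from PANC-1, an established human line derived from a tumour of pancreatic duct epithelium, so all values describe 1 line. Cells were exposed for 6 h to the solvent DMSO alone, to CID661578 at 40 µM or to cercosporamide at 5 µM, with 4 biological replicates of each. Both compounds are described by the study as acting on MNK2, a kinase of the translation initiation complex, and the comparison asks which mRNAs changed in abundance and which changed in their load on ribosomes. Each plate gave total cytosolic RNA and, from the same lysate, polysome-associated RNA, that is mRNA from the gradient fractions carrying several ribosomes. The labels give RPMI with fetal bovine serum as the medium for every group, whereas the study's methods name another medium for this line. The doses of the compounds differ, so their values are given side by side and are not compared.

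Keratins are the intermediate filament proteins of epithelial cells and assemble only as pairs of a type II chain (KRT7, KRT8) with a type I chain (KRT18, KRT19). KRT7 and KRT19 are the classical pair of duct epithelium, SOX9 maintains duct and progenitor identity, and E-cadherin, the product of CDH1, holds epithelial cells to each other. In the shift from an epithelial to a mesenchymal state, ZEB1 represses CDH1, N-cadherin (CDH2) takes the place of E-cadherin, and vimentin (VIM) filaments are added to or replace those of keratin.

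Reads of some of these genes could not be assigned uniquely, which bears on every level given for them. On GRCh38 (GENCODE v44), KRT7 lies on chromosome 12 at 52232520 to 52252186, KRT8 at 52897187 to 52949954 and KRT18 at 52948871 to 52952906, so the annotated spans of KRT8 and KRT18 overlap on opposite strands. KRT19 lies on chromosome 17 at 41523617 to 41528308 and SOX9 on the same chromosome at 72121020 to 72126416. CDH1 lies on chromosome 16 at 68737292 to 68835537, CDH2 on chromosome 18 at 27932879 to 28177946, VIM on chromosome 10 at 17228241 to 17237593 and ZEB1 on chromosome 10 at 31318495 to 31529814. The human genome holds many processed pseudogenes of KRT8 and KRT18. The stretch of KRT18 below, as long as a read (50 bases), is shown because the same letters occur in annotated pseudogenes, and the capitals mark the shared letters, here the whole stretch. It is coding exon sequence of chr12:52949383-52949432, plus strand, with an exact copy in 5 KRT18 pseudogenes.
KRT18: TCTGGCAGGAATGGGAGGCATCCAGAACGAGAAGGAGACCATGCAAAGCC

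Of all 50-base windows of the reference transcript, 39.2% for KRT8 and 52.8% for KRT18 occurred in the transcript of another gene, against 1.79% for KRT19 and 0% for SOX9 and ZEB1. For KRT18 the gene sharing most windows was KRT8, with 326 of the 720 shared windows, so the separation of these genes' reads is uncertain where their annotations overlap. The table held 52 rows named as KRT8 pseudogenes, of which 44 had reads, and together they carried 19.2% as many reads as KRT8 itself. For KRT18 there were 68 such rows, 58 of them with reads, at 17.2% of the reads of KRT18. The windows of VIM were shared in 37.8% of cases, mainly with the antisense gene VIM-AS1, and those of KRT7 in 11.7%, mainly with KRT7-AS. The library kit does not mark strand, so reads of a gene and of its antisense partner cannot be told apart where they overlap. In the table, VIM-AS1 had 0.0568% as many reads as VIM and KRT7-AS had 1.93% as many as KRT7. ZEB1-AS1 had 7.87% as many reads as ZEB1 over all libraries, with a range from 0% to 48.6% between libraries.

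The libraries held between 9268041 and 12184749 counted reads, except the polysome library of cercosporamide replicate 4 with 1592459. The cells carried no trace of other pancreatic cell types above a few reads: of 6 acinar and 6 endocrine markers, none passed the filter, the highest count in any library was 3 for each list, and PRSS1, AMY2A, PNLIP, PTF1A, INS, SST and CHGA were at 0 throughout. The 6 endothelial or leukocyte markers also failed the filter, with CDH5, PTPRC and CD3E at 0 and a highest count of 28, for CD14. CFTR, the chloride channel of the normal duct, was at 0 in every library, as was the mesenchymal regulator TWIST1.

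With DMSO, the filament genes of simple epithelium dominated among the members. Levels are given as CPM, counts scaled to a common library total with factors computed over the libraries, and are divided by the length of the reference transcript where genes are compared. In total RNA, KRT8 stood at 5205, 5805, 4170 and 5616 CPM in replicates 1 to 4, and KRT18 at 3327, 2106, 3712 and 4352 CPM. KRT19 stood at 1121, 1348, 1808 and 1619 CPM, and VIM at 914, 1038, 1201 and 1083 CPM. The 4 keratins together made up 1.01% ± 0.105 (SD, n = 4) of normalized counts in total RNA. KRT7, the usual partner of KRT19 in the duct, was far lower at 18.6, 17.2, 18.8 and 23.3 CPM, and SOX9 stood at 10.3, 13.3, 22.7 and 10.8 CPM. Of the mesenchymal members, CDH2 and ZEB1 were low as well, at 9.34, 6.82, 8.24 and 9.89 CPM for CDH2 and at 7.89, 5.80, 6.42 and 10.6 CPM for ZEB1. Mesenchymal genes outside the members were not all low. The 22 further ones counted below summed to between 6334 and 7717 CPM in a DMSO total RNA library. LGALS1, the most abundant of them, stood at 3391, 2363, 2088 and 1894 CPM. The 29 further epithelial and duct genes, without the member keratins, summed to between 542 and 612 CPM. CDH1 was hardly detected, with 0, 0, 7 and 0 reads.

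Per kilobase of transcript, the order in DMSO total RNA ran KRT8, KRT18, KRT19, VIM, KRT7, SOX9, CDH2, ZEB1 and CDH1. KRT8 at 2914 ± 409 and KRT18 at 2388 ± 669 CPM per kb (SD, n = 4) overlapped, and KRT8 was the higher of the pair in 3 of 4 replicates. KRT18 lay 2.25 times above KRT19 and KRT19 lay 2.16 times above VIM, with no overlap of the 4 libraries in either case. A wide step followed from VIM at 492 ± 55.0 to KRT7 at 12.0 ± 1.64 CPM per kb, a ratio of 41.0. At the lower end, CDH2 at 2.13 ± 0.338 and ZEB1 at 1.29 ± 0.360 CPM per kb overlapped in range, although CDH2 was higher in 4 of 4 replicates. CDH1 came last, with reads in 1 of the 4 libraries. The balance of type II to type I keratin, taken per kb, was 0.899 ± 0.315 (SD, n = 4), and the ratio of KRT8 to KRT18 ran from 0.890 to 2.18.

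**Figure D1:**
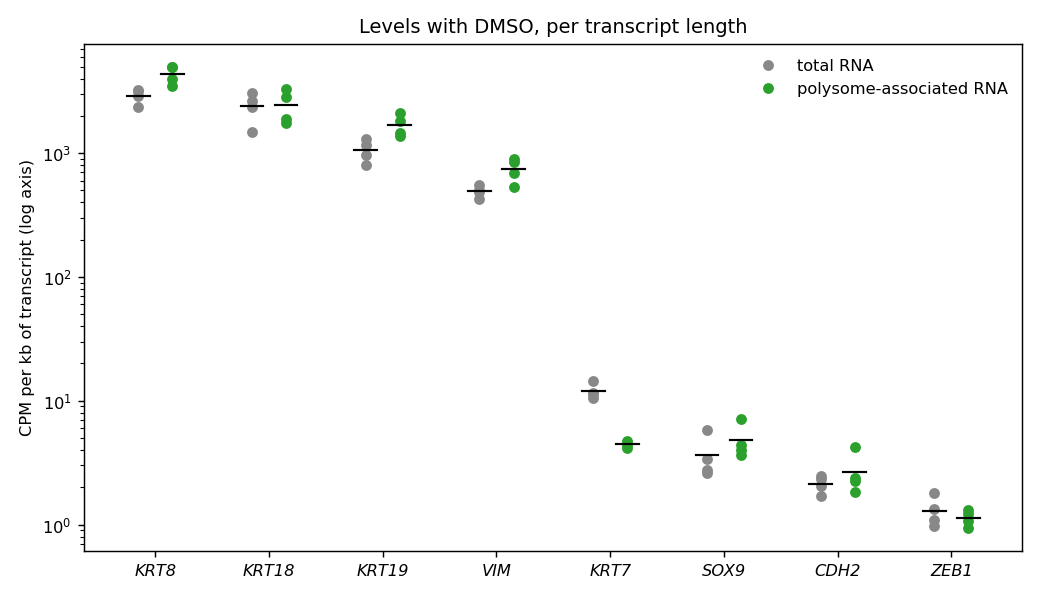
Level of the 8 tested genes with DMSO, in CPM per kilobase of reference transcript on a log axis, in total RNA (grey) and polysome-associated RNA (green). Points are the 4 replicates and bars their mean; KRT8, KRT18, KRT19 and VIM sit at 424 or above in every library, and KRT7, SOX9, CDH2 and ZEB1 at 14.3 or below.

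The same mRNAs differed in how far they were carried on polysomes with DMSO. KRT7 was depleted: its polysome level was 7.64, 6.73, 7.46 and 7.08 CPM, under the lowest total RNA value of 17.2 CPM, and the polysome-to-total ratio was 0.411, 0.391, 0.397 and 0.304. KRT7 was thus lower in polysome than in total RNA in 4 of 4 replicates, by 1.42 on the log2 scale (log2 difference -1.42, SE 0.230, adjusted p = 3.9e-06). KRT8, the type II chain that is abundant here, went the other way at 7075, 6274, 8852 and 8830 CPM on polysomes, above its total RNA range (log2 difference 0.57, SE 0.170, adjusted p = 0.00561). KRT19 was likewise higher on polysomes, at 2024, 1923, 2945 and 2523 CPM (0.68, SE 0.159, adjusted p = 0.000639), also without overlap. These p-values and those below are from edgeR's quasi-likelihood test, adjusted by Benjamini-Hochberg over all 12058 genes, and a gene is called at an adjusted p under 0.15.

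VIM was higher on polysomes in 4 of 4 replicates, at 1494, 1148, 1943 and 1822 CPM (log2 difference 0.58, SE 0.164, adjusted p = 0.00407), with 1 polysome library inside the range of total RNA. SOX9 passed at 15.9, 17.2, 28.1 and 14.3 CPM (0.42, SE 0.214, adjusted p = 0.102), but its ranges overlapped, and it no longer passed without replicate 1 (0.36, adjusted p = 0.282) and without the replicate term (0.40, adjusted p = 0.342). KRT18, CDH2 and ZEB1 were not called, with log2 differences of 0.03 (SE 0.164), 0.27 (SE 0.248) and -0.16 (SE 0.257). In all, 5 of 8 members differed between the fractions, 4 higher and 1 lower on polysomes, where 58.3% of all tested genes were called, so that the count is near the background. The median log2 difference was 0.35 over the members and -0.02 over all tested genes. When the fractions were scaled separately, the median of all genes moved to 0.26, KRT18 (0.31, adjusted p = 0.118) and CDH2 (0.55, adjusted p = 0.0627) were called higher too, and ZEB1 stood at 0.11. No spike-in was used, so these are shares within each fraction and not amounts per cell. In RNA from a whole culture, fewer cells holding a transcript and less of it in each cell cannot be told apart.

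On polysomes the per-kb order was KRT8, KRT18, KRT19, VIM, SOX9, KRT7, CDH2, ZEB1 and CDH1. SOX9 at 4.80 ± 1.59 and KRT7 at 4.45 ± 0.250 CPM per kb (SD, n = 4) overlapped and had exchanged places relative to total RNA. KRT8 no longer overlapped KRT18 there (ratio of means 1.78), and KRT18 overlapped KRT19. The 4 keratins made up 1.36% ± 0.280 (SD, n = 4) of normalized polysome counts.

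CDH1 was too scarce for the filter and was not tested. It had no read in 13 of the 24 libraries and at most 10 in any library. With DMSO it had 7 reads over the 4 total RNA libraries and 11 over the 4 polysome libraries, nearly all in 1 library of each. With CID661578 it had 4, 0, 5 and 7 reads in total RNA and 7, 3, 0 and 5 on polysomes. With cercosporamide it had 0 reads of 42405662 in total RNA, which allows a level of up to 0.0707 CPM at 3 reads over the group (counting error only), and 3, 0, 1 and 0 reads on polysomes.

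With CID661578, ZEB1 was the only tested identity gene that was called, and only on polysomes. In total RNA, ZEB1 stood at 21.2, 21.0, 11.4 and 10.9 CPM against 7.89, 5.80, 6.42 and 10.6 CPM with DMSO. The groups did not overlap, but replicate 4 of CID661578 lay only just above the highest DMSO library, and the fitted log2 change of 1.06 (SE 0.309) was not called (adjusted p = 0.318). On polysomes ZEB1 rose: it stood at 11.8, 11.0, 12.8 and 14.3 CPM against 6.32, 5.58, 7.28 and 7.79 CPM with DMSO. There the groups did not overlap and the change was alike in the 4 replicates, at 0.90, 0.98, 0.82 and 0.88 on the log2 scale (fitted 0.89, SE 0.207, adjusted p = 0.0193). The polysome call was lost without the replicate term (0.89, adjusted p = 0.192) and after a correction for transcript GC content (0.58, adjusted p = 0.221).

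The other 7 tested members were not called in either fraction. CDH2 stood at 13.6, 13.0, 9.96 and 8.52 CPM in total RNA and at 16.0, 12.2, 10.9 and 17.1 CPM on polysomes, with log2 changes of 0.40 (SE 0.291) and 0.43 (SE 0.227). The keratins and VIM had changes between -0.18 and 0.18 in total RNA and between -0.26 and 0.12 on polysomes, and SOX9 had 0.07 and 0.26. KRT8, KRT18 and KRT19 shared a low total RNA library, replicate 1, at 2907, 1789 and 680 CPM, which lay under every DMSO library of the same gene, while the other 3 replicates of KRT19 stood between 1925 and 1954 CPM.

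In all, edgeR called 0 of 8 members in total RNA with CID661578 (0.448% of all tested genes were called). ZEB1 alone had an unadjusted p under 0.05, and DESeq2 called 1, again ZEB1 (adjusted p = 0.0758). On polysomes 1 of 8 members was called, where 10.1% of all genes were. Translation efficiency (TE), the change on polysomes beyond the change in total RNA, is called at an adjusted p under 0.15 and a change over 1.2-fold. No member was called for TE by edgeR or by DESeq2, and 0 members had an unadjusted p under 0.05, with 0.207% of all genes called. The member TE changes ran from -0.28 for KRT19 to 0.17 for SOX9, with a median of -0.05 against 0.03 for all genes. For ZEB1 the TE change was -0.14 (SE 0.357), and the replicates were split: the polysome-to-total ratio was 0.559, 0.523, 1.13 and 1.32 against 0.802, 0.962, 1.13 and 0.735 with DMSO.

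**Figure D2:**
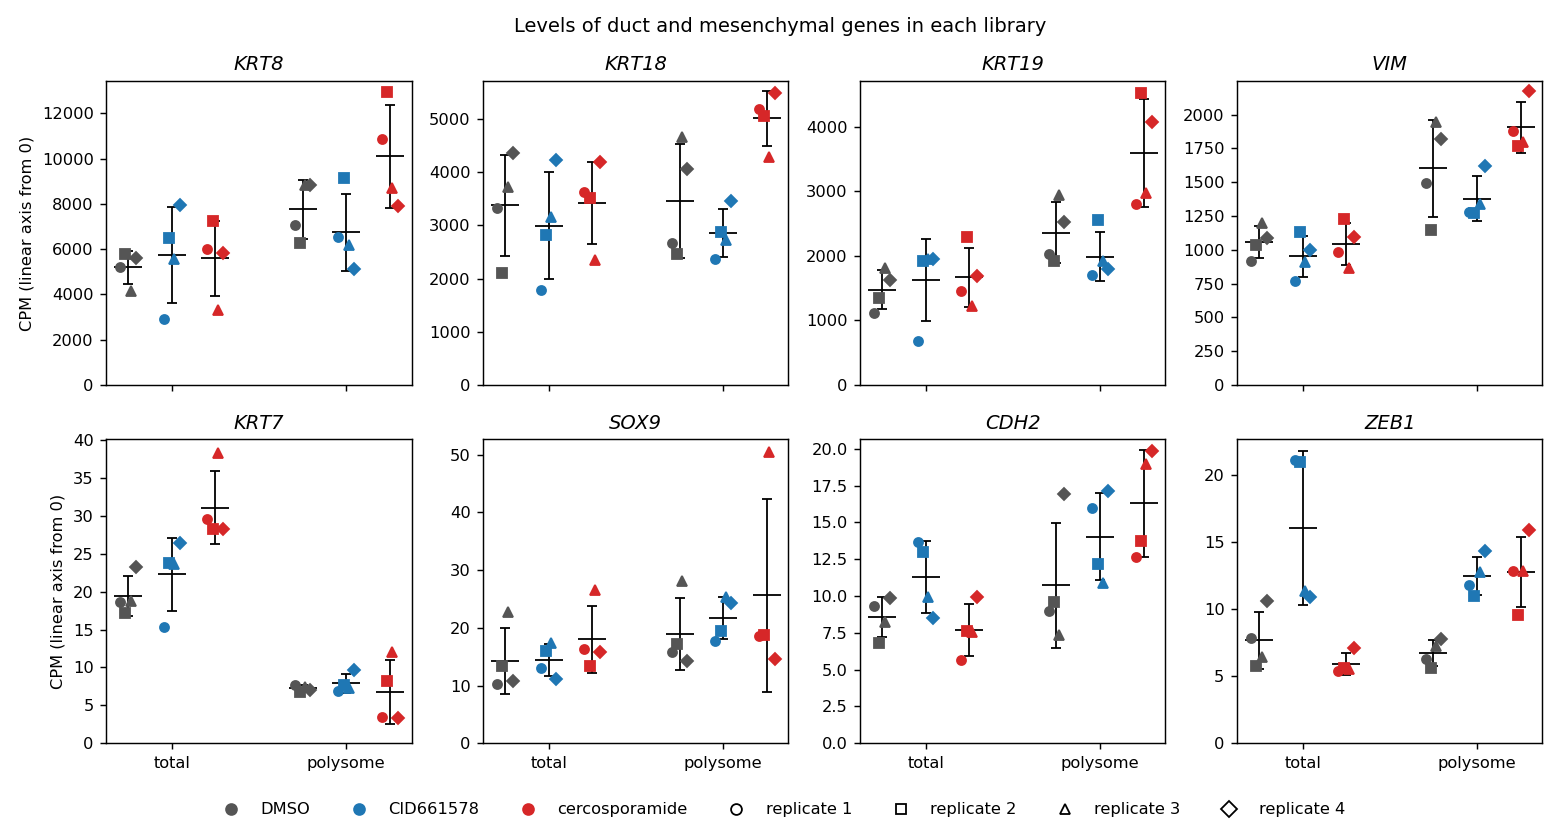
CPM of the 8 tested genes in each of the 24 libraries on linear axes from 0, by fraction and treatment, with a symbol for each replicate and the mean ± SD of 4 replicates in black. ZEB1 on polysomes stands at 9.54 or above with either compound and at 7.79 or below with DMSO, and KRT7 in total RNA stands at 28.2 or above with cercosporamide and at 23.3 or below with DMSO.

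With cercosporamide, total RNA of the members was not called for any gene, and the differences from DMSO appeared on polysomes. In total RNA 0 of 8 members passed, where 0.381% of all genes did. KRT7 alone had an unadjusted p under 0.05, and DESeq2 called 1 member, KRT7 (adjusted p = 0.104). On polysomes 4 of 8 members rose and 0 fell. Of all 12058 tested genes 32.2% were called in either direction, 2212 higher and 1669 lower. The median member change was 0.48 against -0.01 for all genes. For TE, 3 of 8 members were called, 2 higher and 1 lower, where 28.4% of all genes were called. The members' median TE change was 0.37 against 0.00 for all genes.

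Of the 8 tested members, ZEB1 had the largest change on polysomes and in TE, except after the GC correction. With that correction KRT18 and KRT19 had larger TE changes, and larger polysome changes included those of KRT8, KRT18, KRT19, SOX9 and VIM. The total RNA of ZEB1 with cercosporamide was 5.41, 5.65, 5.53 and 7.14 CPM, within or just under the DMSO range (log2 change -0.36, SE 0.313, adjusted p = 0.711). Its polysome level was 12.8, 9.54, 12.9 and 15.9 CPM, above every DMSO library, and it rose by 0.90 on the log2 scale (SE 0.214, adjusted p = 0.00547). The polysome-to-total ratio was 2.38, 1.69, 2.33 and 2.23, against 0.735 to 1.13 with DMSO, and TE rose by 1.27 (SE 0.370, adjusted p = 0.0213). The shallow library of replicate 4 held 24 reads of ZEB1, against 117 to 157 in the other 3. Both calls remained in each fit with 1 replicate number or the shallow plate left out, and both were lost after the GC correction, at 0.46 on polysomes (adjusted p = 0.156) and 0.68 for TE (adjusted p = 0.212).

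CDH2 followed the same direction. Its total RNA was 5.66, 7.63, 7.58 and 9.91 CPM (log2 change -0.15, SE 0.294), overlapping with DMSO. On polysomes it stood at 12.7, 13.7, 18.9 and 19.9 CPM against 8.97, 9.61, 7.37 and 16.9 CPM with DMSO, overlapping through DMSO replicate 4, and was called higher (0.66, SE 0.233, adjusted p = 0.0511). The polysome-to-total ratio was 2.24, 1.80, 2.50 and 2.00 against 0.960, 1.41, 0.895 and 1.71, and TE rose by 0.83 (SE 0.349, adjusted p = 0.106), higher in 4 of 4 replicates. The TE call was lost without replicate 1 (0.70, adjusted p = 0.324), without replicate 2 (0.99, adjusted p = 0.170), without replicate 3 (0.58, adjusted p = 0.343), after the GC correction (0.55, adjusted p = 0.309) and with no filter (0.76, adjusted p = 0.313). The polysome call was lost without replicate 3 (0.36, adjusted p = 0.375), without the replicate term (0.58, adjusted p = 0.248) and with no filter (0.55, adjusted p = 0.181).

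KRT7 moved the other way. Its total RNA was 29.6, 28.2, 38.3 and 28.2 CPM, above every DMSO library, with a log2 change of 0.68 (SE 0.231) that was not called (adjusted p = 0.294). Its polysome level did not follow and was spread widely, at 3.52, 8.16, 12.1 and 3.31 CPM (log2 change -0.08, SE 0.307), the last from 5 reads. The polysome-to-total ratio was 0.119, 0.289, 0.315 and 0.117 against 0.304 to 0.411 with DMSO, lower in 4 of 4 replicates, and TE fell by 0.88 (log2 change -0.88, SE 0.359, adjusted p = 0.0942). The TE call was lost without replicate 1 (-0.56, adjusted p = 0.426), without replicate 4 (-0.86, adjusted p = 0.167), without the shallow cercosporamide replicate 4 alone (-0.77, adjusted p = 0.202) and after the GC correction (-0.52, adjusted p = 0.358).

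Among the other keratins, KRT18 and KRT19, both type I chains, rose on polysomes. KRT18 stood at 5195, 5063, 4282 and 5495 CPM against 2667, 2461, 4662 and 4052 CPM with DMSO, with replicate 3 within the DMSO range (log2 change 0.57, SE 0.203, adjusted p = 0.0540). KRT19 stood at 2796, 4513, 2966 and 4071 CPM against 2024, 1923, 2945 and 2523 CPM, with replicate 1 within the DMSO range (0.59, SE 0.201, adjusted p = 0.0459). KRT8 stood at 10874, 12921, 8681 and 7895 CPM against 7075, 6274, 8852 and 8830 CPM and was not called (0.34, SE 0.216, adjusted p = 0.291), but it was called after the GC correction (0.60, adjusted p = 0.0507). The KRT19 call was lost without replicate 2 (0.39, adjusted p = 0.287). That of KRT18 was lost without replicate 1 (0.43, adjusted p = 0.227), without replicate 2 (0.42, adjusted p = 0.285) and without the replicate term (0.53, adjusted p = 0.163).

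In total RNA these 3 keratins had log2 changes of 0.04 to 0.18, and none was called for TE, at 0.31 for KRT8, 0.54 for KRT18 and 0.44 for KRT19. KRT18 had the smallest adjusted p of the 3 (0.170), and DESeq2 called it (0.47, adjusted p = 0.142). After the GC correction all 3 were called higher for TE, at 0.65, 0.87 and 0.82 (adjusted p = 0.131, 0.0177 and 0.0318). Keratins made up 1.87% ± 0.281 (SD, n = 4) of normalized polysome counts with cercosporamide, from 1.59% to 2.25%, against 1.07% to 1.65% with DMSO and 1.04% to 1.46% with CID661578. The type II to type I ratio on polysomes, per kb, was 0.932 ± 0.197 with cercosporamide, 1.07 ± 0.116 with DMSO and 1.10 ± 0.250 with CID661578, and these ranges overlapped.

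VIM and SOX9 were not called with cercosporamide. VIM stood at 986, 1225, 868 and 1093 CPM in total RNA and at 1879, 1769, 1794 and 2177 CPM on polysomes, with log2 changes of -0.03 (SE 0.177) and 0.27 (SE 0.175) and a TE change of 0.30 (SE 0.231). VIM was called after the GC correction, at 0.49 on polysomes (adjusted p = 0.0681) and 0.58 for TE (adjusted p = 0.0918). SOX9 stood at 16.4, 13.4, 26.5 and 15.9 CPM in total RNA and at 18.6, 18.8, 50.6 and 14.6 CPM on polysomes, with replicate 3 standing apart in both fractions, as it did with DMSO. Its log2 changes were 0.36 (SE 0.247) and 0.38 (SE 0.226), and its TE change was -0.01 (SE 0.314). After the GC correction SOX9 was called on polysomes (0.58, adjusted p = 0.0847).

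**Figure D3:**
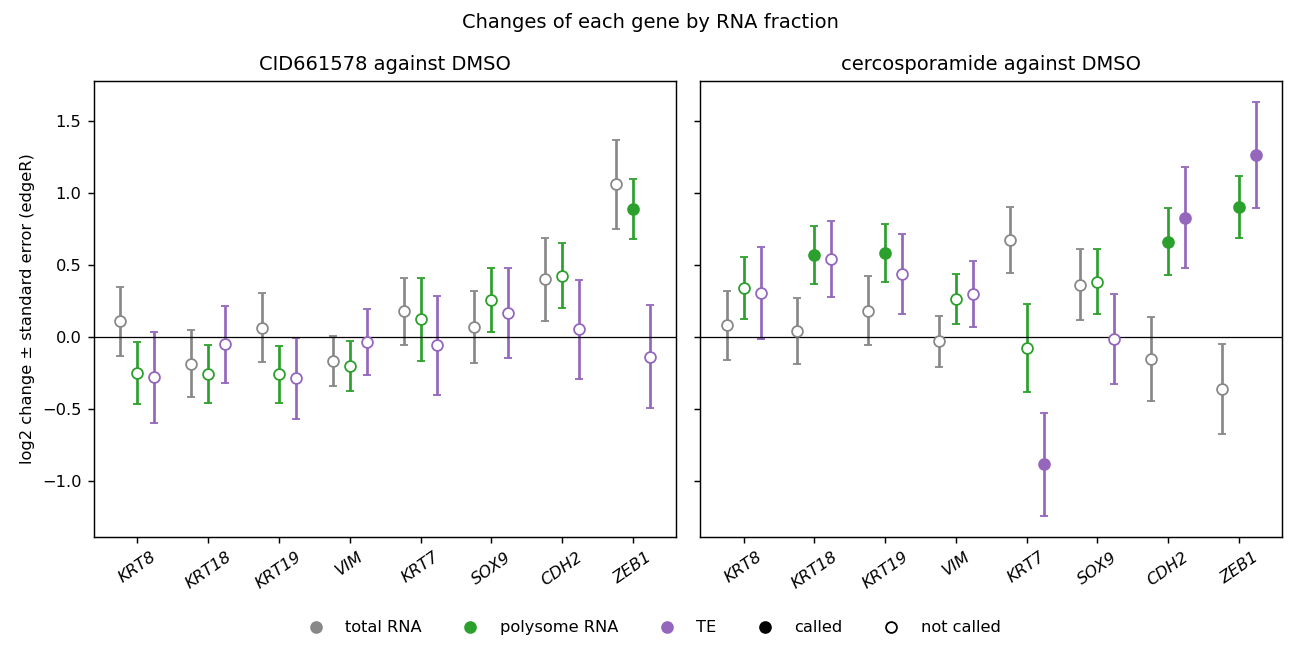
Log2 change against DMSO with its standard error (edgeR) for each tested gene in total RNA (grey), polysome-associated RNA (green) and TE (violet), for CID661578 at 40 µM (left) and cercosporamide at 5 µM (right). Filled points are called at an adjusted p under 0.15 (for TE also over 1.2-fold); with CID661578 the only filled point is ZEB1 on polysomes, and with cercosporamide KRT18, KRT19, CDH2 and ZEB1 are filled on polysomes and KRT7, CDH2 and ZEB1 for TE.

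**Figure D4:**
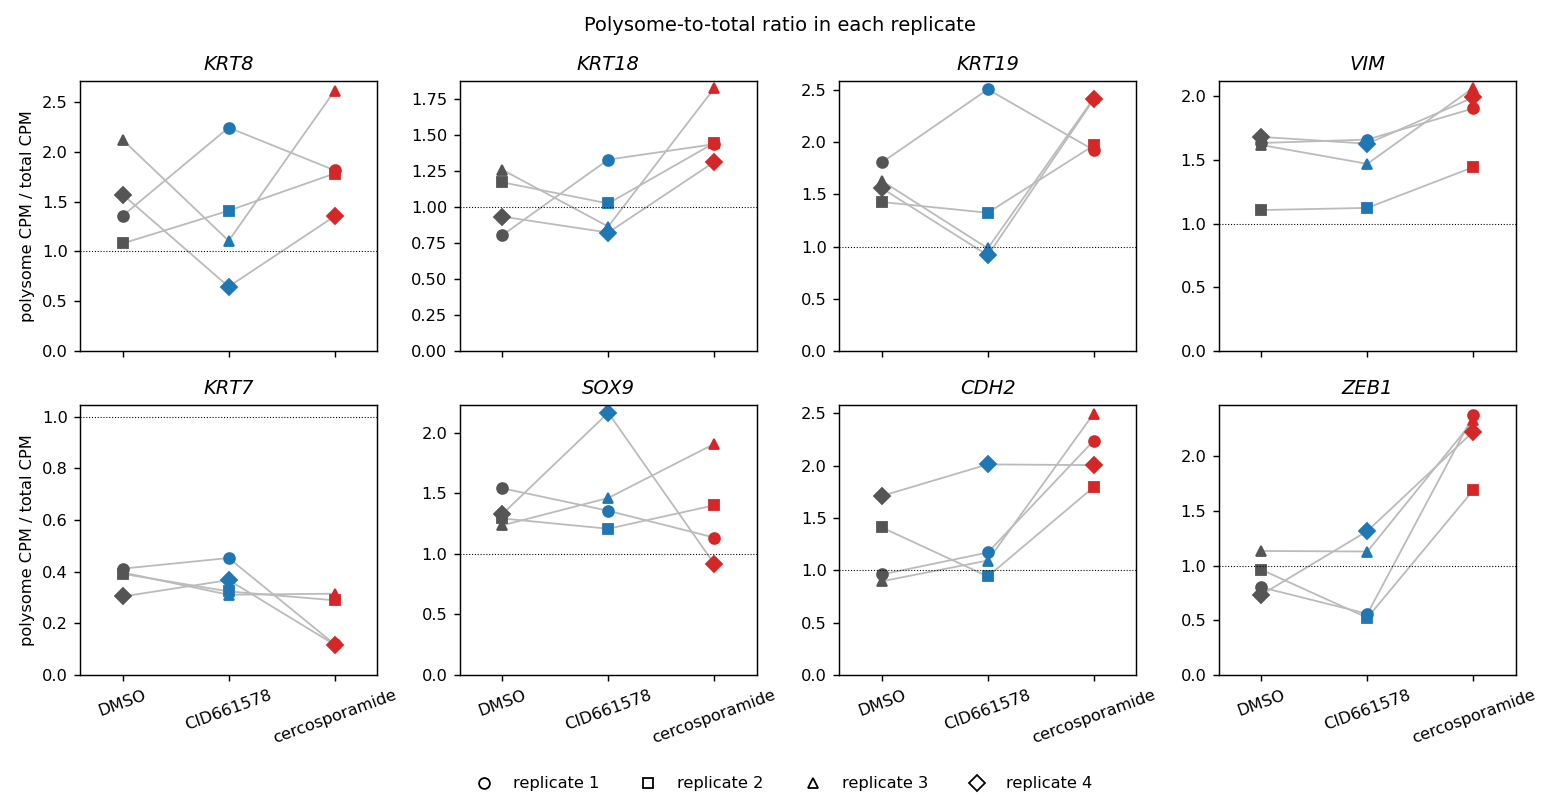
Ratio of polysome to total CPM in each replicate by treatment, with lines joining libraries that share a replicate number and a dotted line at 1. The ZEB1 ratios with cercosporamide, 1.69 to 2.38, lie above all those with DMSO, 0.735 to 1.13, and KRT7 stays under 1 in every replicate.

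The tested members also differ in the base composition of their transcripts. ZEB1 (38.9% GC) and CDH2 (43.1%) have the lowest GC content of the tested members, SOX9 (51.1%) and VIM (54.3%) are intermediate, and KRT18 (58.2%), KRT8 (59.3%), KRT19 (61.8%) and KRT7 (62.0%) the highest. Across 11571 tested genes with a transcript, the TE change correlated with GC content at Pearson's r = -0.51 with cercosporamide and -0.54 with CID661578, both set against the same DMSO libraries. Over the 8 members the value was -0.70 with cercosporamide and -0.39 with CID661578. Genes are not independent replicates, and these values are descriptions. KRT7 and KRT19, of nearly the same GC content, had TE changes of opposite sign with cercosporamide, -0.88 and 0.44. With the GC correction given above, no TE call of ZEB1, CDH2 or KRT7 was left, and KRT8, KRT18, KRT19 and VIM were called higher. The part of base composition in these changes was not tested further.

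Genes with related roles were counted from lists of epithelial, mesenchymal and filament genes. Of 29 further epithelial and duct genes, 14 passed the filter. With cercosporamide 5 of the 14 rose on polysomes and 0 fell, led by KRT17, a keratin of basal and stressed epithelium (1.69, SE 0.487, adjusted p = 0.0187), CLDN4, a tight junction claudin (0.98, SE 0.208, adjusted p = 0.00244), and EPCAM, an epithelial adhesion molecule (0.61, SE 0.263, adjusted p = 0.113). KRT17 was scarce on polysomes, with 4, 3, 13 and 16 reads with DMSO and 27, 30, 28 and 3 with cercosporamide in replicates 1 to 4. For TE, 2 of 14 rose, OCLN (0.73, SE 0.233, adjusted p = 0.0342) and TJP1 (0.71, SE 0.262, adjusted p = 0.0665), both parts of tight junctions. In that comparison 28.4% of all tested genes were called in either direction, 1907 of 12058 being higher. With CID661578, edgeR called 0 of 14 in total RNA, on polysomes or for TE, where 3, 1 and 2 genes had an unadjusted p under 0.05. In these comparisons 0.448%, 10.1% and 0.207% of all tested genes were called. With DMSO, where 58.3% of all genes were called, 5 of the 14 were higher and 4 lower on polysomes than in total RNA, led by CTNND1, a cadherin-binding catenin (2.85, SE 0.356, adjusted p = 3.81e-08).

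Of 22 further mesenchymal genes 14 passed the filter. On polysomes 3 of 14 rose with cercosporamide, among them LOX, which cross-links collagen (0.82, SE 0.307, adjusted p = 0.0644), and SPARC, a matrix glycoprotein (0.47, SE 0.169, adjusted p = 0.0542). With CID661578, where 10.1% of all genes were called in either direction, 1 of 14 fell on polysomes, the matrix protease MMP2 (-0.66, SE 0.204, adjusted p = 0.0797). For TE edgeR called 0 of 14 with either compound, with 1 gene at an unadjusted p under 0.05 with cercosporamide and 0 with CID661578, and in total RNA 0 of 14 with 3 and 0 such genes. Of all tested genes, 28.4% with cercosporamide and 0.207% with CID661578 were called for TE, and 0.381% and 0.448% in total RNA. With DMSO, 4 of the 14 were higher and 3 lower on polysomes, a share near the 58.3% of all genes, led by S100A4, a calcium-binding protein (-1.28, SE 0.162, adjusted p = 4.79e-08). The shares of both lists on polysomes with cercosporamide, 5 of 14 and 3 of 14, stand beside 32.2% of all tested genes called in either direction. Of the 12058 tested genes, 2212 were called higher there.

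Of 10 genes for partners of intermediate filaments, 8 passed the filter, and all 8 were higher on polysomes than in total RNA with DMSO, led by PLEC, the linker plectin (2.46, SE 0.182, adjusted p = 3.25e-13), NES, the filament protein nestin (1.70, SE 0.230, adjusted p = 1.91e-07), and PPL, the desmosomal linker periplakin (1.49, SE 0.264, adjusted p = 1.65e-05). In that comparison 58.3% of all tested genes were called in either direction, 3341 of 12058 being higher on polysomes. The median log2 difference of the 8 was 1.40, against 0.35 for the identity genes. With cercosporamide LMNB1, a nuclear lamin, rose on polysomes (1.10, SE 0.199, adjusted p = 0.000566) and PLEC fell (-1.21, SE 0.331, adjusted p = 0.0146), and for TE SYNM, the filament protein synemin (1.64, SE 0.412, adjusted p = 0.00877), and LMNB1 (1.43, SE 0.305, adjusted p = 0.00266) rose. With CID661578 PPL (-0.83, SE 0.268, adjusted p = 0.0924) and LMNB2 (-0.59, SE 0.209, adjusted p = 0.121) fell on polysomes. The shares of all tested genes called in either direction were 32.2% on polysomes and 28.4% for TE with cercosporamide, and 10.1% on polysomes with CID661578.

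Over the 24 libraries, the genes whose log2 CPM was most like that of KRT8 were its pseudogene rows KRT8P3 (Pearson's r = 0.968) and KRT8P14 (0.939), and those most like KRT18 were KRT18P10 (0.969) and KRT18P11 (0.945). KRT7 was most like ANAPC11 (0.952) and MT1L (0.951), and KRT19 most like PUF60 (0.920) and KIF22 (0.911). VIM was most like DMAP1 (0.921) and LAS1L (0.912), and SOX9 most like NRG1 (0.855) and LENG1 (0.843). The nearest genes were less close for CDH2, PPP4R3A (0.838) and RPAP3 (0.822), and for ZEB1, ARRDC3 (0.799) and MORC3 (0.794). These libraries share treatments, plates and fractions, so the values describe likeness over this set of libraries.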

How the data were processed

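Total cytosolic and polysome-associated RNA of 12 PANC-1 plates (3 treatments, 4 biological replicates each, 24 libraries) was sequenced after Smart-seq2 library preparation. The table deposited by the authors holds raw counts per gene: adapters and ribosomal reads were removed with BBDuk, reads were aligned to hg38 with HISAT2 and summarized with featureCounts at default settings on RefSeq gene definitions. The methods do not spell out what those defaults do with reads of several placements. The counts were used as deposited, and every column was mapped to its sample by title. Only genes with at least 1 read in every library were kept, 12058 of 54583.

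From the counts, TMM factors were computed over all 24 libraries, and edgeR 4.0.16 (R 4.3.3) quasi-likelihood tests were fitted over all tested genes with Benjamini-Hochberg adjustment: on the 12 libraries of a fraction with treatment and replicate terms, on the 8 DMSO libraries with fraction and replicate terms, and for translation efficiency (TE) on all 24 libraries with a term per plate and per replicate on polysomes (6 residual degrees of freedom). Calls needed an adjusted p under 0.15, as in the study's methods, and over 1.2-fold for TE. The study's own model for translation was not run here. Alternatives were DESeq2 1.42.0, its size factors, TMM within each fraction, other filters, no replicate block, correction for transcript GC content (loess on GENCODE v44 reference transcripts, 96.0% of genes matched), an adjusted p under 0.05 and leaving out replicates. On simulated data for TE with CID661578, 82.8% of 186 genes changed by 1.5 log2 units were recovered, with 27 false calls among 11249 unchanged genes. Member TE changes with CID661578 were much smaller, from -0.28 to 0.17, and recovery at such sizes was not simulated.

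All 9 members are named in every comparison, and from each related list at most the 3 called genes with the largest change per comparison, with the 2 genes most correlated with each member (log2 CPM, pseudocount 0.5). The members and lists were chosen with earlier results of these data known. The depth, 1592459 reads in the shallowest library and at least 9268041 in the others, leaves ZEB1 with 42 to 242 reads per library and 24 in the shallowest. Some items are not reported here.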

Additional observations from a re-analysis of the deposited data

Results flagged for a closer look

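The highest or lowest library of a group of 4 stood apart by Dixon's test in 5 of 49 groups of members, and chance alone gives about 1 in 20. KRT7 reached 38.3 CPM in cercosporamide total RNA replicate 3, against 28.2 to 29.6 CPM in the other 3. KRT19 stood at 680 CPM in CID661578 total RNA replicate 1, against 1925 to 1954 CPM in the others. SOX9 reached 50.6 CPM in cercosporamide polysome replicate 3. ZEB1 reached 7.14 CPM in cercosporamide total RNA replicate 4. CDH1 stood at 0.787 CPM in DMSO polysome replicate 4, which is 10 reads. A group was examined only if its highest library had at least 10 reads. This CDH1 group entered through that library alone, so its mark cannot be set against the chance rate.

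The change with cercosporamide differed between total and polysome-associated RNA, by the TE test of that difference (edgeR), for 3 members: ZEB1 (1.27, adjusted p = 0.0213, higher in 4 of 4 replicates), CDH2 (0.83, adjusted p = 0.106, 4 of 4) and KRT7 (-0.88, adjusted p = 0.0942, lower in 4 of 4). Without 1 replicate number, adjusted p ran from 0.0390 to 0.103 for ZEB1, from 0.0685 to 0.343 for CDH2 and from 0.0722 to 0.426 for KRT7.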

How the results depend on the processing

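Over 664 alternative values for the 56 changes of 8 members in 7 comparisons, 582 kept their direction and their side of the threshold, 22 lost a call, 14 gained one and 46 changed sign, of which 0 were called. Of the calls in the report, ZEB1 with cercosporamide was lost after GC correction and under no other alternative, and the calls of KRT7, KRT8, KRT19 and VIM between fractions with DMSO held in each. Lost calls are given beside each result above. The causes of these shifts were not tested.

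Members called (of 8) moved as follows. For TE with cercosporamide, 3 became 4 by DESeq2 and 4 with GC correction (KRT8, KRT18, KRT19 and VIM), 1 at an adjusted p under 0.05 and 1 to 2 when a replicate was left out, 1 of these without replicate 1. In total RNA, 0 became 1 with CID661578 by DESeq2, with no filter (ZEB1, 1.07, adjusted p = 0.108) and with GC correction (1.02, adjusted p = 0.0899), and 0 became 1 with cercosporamide by DESeq2. On polysomes, 1 became 0 with CID661578 with no replicate block and with GC correction, and 4 became 6 with cercosporamide with GC correction (KRT8, KRT18, KRT19, SOX9, CDH2 and VIM), 2 at an adjusted p under 0.05 and with no replicate block, and 2 to 4 when a replicate was left out, 2 of these without replicate 2. In a fit without the pairing by replicate number, ZEB1 on polysomes with CID661578 had an adjusted p of 0.192, as in the report. Same-numbered libraries deviated together (r over 0.1) in 13 of 16 pairs (-0.0246 to 0.609), and 12 correlated best with their own number. In total RNA every library did so. On polysomes, replicates 1 and 4 of either compound correlated better with a DMSO library of another number. Their r with the same number was 0.240 and 0.202 for CID661578 and -0.0246 and 0.0586 for cercosporamide. The pairing was thus less clear on polysomes, where the ZEB1 call depends on it. The study's methods enter the replicate as a batch.

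With GC correction, uncalled values changed sign for TE with CID661578 in KRT7 (0.35), KRT8 (0.022), KRT18 (0.21), KRT19 (0.11), CDH2 (-0.11) and VIM (0.079), and with cercosporamide in SOX9 (0.21). In total RNA they did so in KRT19 with CID661578 (-0.077) and in KRT8 (-0.040) and KRT18 (-0.055) with cercosporamide. On polysomes they did so in KRT8 (0.015) and KRT19 (0.027) with CID661578 and KRT7 with cercosporamide (0.15), and between fractions with DMSO in KRT18 (-0.15) and ZEB1 (0.060). TMM within each fraction turned KRT18 in total RNA with cercosporamide (-0.0018) and ZEB1 between fractions (0.11), and no filter turned KRT18 (-0.0073).

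With each replicate or the shallow plate left out in turn, uncalled values with a change of sign ranged as follows: for TE with CID661578 KRT7 (-0.19 to 0.018), KRT8 (-0.62 to 0.042), KRT18 (-0.31 to 0.081), SOX9 (-0.022 to 0.28), CDH2 (-0.057 to 0.26) and ZEB1 (-0.48 to 0.11), for TE with cercosporamide SOX9 (-0.28 to 0.20), in total RNA with CID661578 KRT8 (-0.029 to 0.37), KRT18 (-0.36 to 0.019), KRT19 (-0.064 to 0.28) and SOX9 (-0.018 to 0.23), in total RNA with cercosporamide KRT18 (-0.17 to 0.25), KRT19 (-0.00037 to 0.39), CDH2 (-0.35 to 0.0095) and VIM (-0.11 to 0.11), on polysomes with CID661578 KRT7 (-0.0063 to 0.22), on polysomes with cercosporamide KRT7 (-0.49 to 0.26), between fractions with DMSO KRT18 (-0.030 to 0.17) and ZEB1 (-0.20 to 0.022).

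Over all tested genes, counts of calls ranged from 12 to 341 for TE with CID661578 (25 in the report) and from 1816 to 3607 with cercosporamide (3422), from 5 to 249 and from 0 to 778 in total RNA (54 and 46), and from 69 to 1517 and from 1921 to 4121 on polysomes (1221 and 3881). The lowest counts on polysomes and in total RNA came with no replicate block. The 1592459 reads of the shallow library limit the precision of KRT7, SOX9, CDH2 and ZEB1 with cercosporamide.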
